A study of Mus musculus with 8 samples.

Results

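Undifferentiated mouse embryonic stem cells were collected at day 0 of 2 culture series, and their messenger RNA was compared between the series within each genotype. The libraries were taken by their names in the deposited table: those of the KSR series and those of the N2B27 series at day 0, 2 libraries a side, 4 of the 8 libraries of the study. The study asked how the loss of Dip2c, which encodes a disco-interacting protein, affects neural differentiation of the stem cell line 46C, which carries a green fluorescent reporter at the neural gene Sox1. In the KSR series, 46C cells labelled WT and Dip2c-deleted cells of the same line labelled KO were sampled at day 0 and after 4 days in KSR induction medium. In the N2B27 series both were sampled at day 0 and after 6 days in N2B27 induction medium. All 4 day 0 libraries are labelled as proliferating stem cells. The protocol names normal stem cell medium for the 46C day 0 cells only and does not give its make-up. No label says how the deletion was made, from how many clones, or when the cells of either series were thawed, fed or collected. The free-text descriptions of 2 of the 4 are swapped against their titles, and the groups follow the titles and the names in the table. There was 1 library per genotype and series, so the series cannot be told apart from the batch of culture, passage, collection or library.

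Mouse embryonic stem cells grow in a balance of self-renewal and early differentiation that shifts with serum, lipids, oxygen, cell density and feeding. Cells in low oxygen stabilise the transcription factor Hif1, which raises glucose uptake, glycolysis and mitophagy genes, whereas cells short of sterols release the SREBP factors, which raise the enzymes of cholesterol and fatty acid synthesis. Genes of the germline and of the Rhox homeobox cluster on the X chromosome are held low by DNA methylation in many cell types, and their levels vary between stem cell cultures.

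The day 0 libraries had FPKM sums (FPKM are fragments scaled by transcript length and by the mapped fragments of the library) of 5.587e+05 to 6.371e+05, with 13451 to 13735 genes at 1 FPKM or more and 6.12% to 6.57% of the sum in mitochondrially encoded genes. Read depth is unknown, since the table holds no counts. Dip2c had 3.69 and 3.33 FPKM in the KSR series and 2.74 and 2.91 in the N2B27 series, with the WT-labelled library first here and throughout, so its messenger RNA did not separate the labels. The libraries are therefore named by label. The Y-linked genes Eif2s3y and Ddx3y had 14.9 and 0 and 5.29 and 0 FPKM in the KSR series and 7.03 and 0 and 2.06 and 0 in the N2B27 series, above 0 under the WT label and at 0 under the KO label in both. The stem cell markers Nanog and Pou5f1 were high in all 4 libraries. Nanog had 362 and 285 FPKM in the KSR series and 331 and 292 in the N2B27 series. Pou5f1 had 699 and 631 FPKM in the KSR series and 785 and 629 in the N2B27 series. Not every listed marker was high. Dppa3 had 0.990 and 1.91 FPKM in the KSR series and 15.5 and 9.64 in the N2B27 series, and Lin28b had at most 0.491 FPKM.

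The promoters of 6 metabolic and stress genes that differed between the series are shown first because the genes belong to programmes that differed in both genotypes. Each sequence runs 5′ to 3′ on the gene's strand, from 250 bases before to 50 bases after the annotated start, in RefSeq GRCm38.p6. For the hypoxia-related genes, capitals mark ACGTG or its reverse complement, a form of the core of the element that Hif1 is known to bind. In Bnip3 both readings of the motif overlap in 1 run. Slc2a1 (chr4:119108495-119108794, plus strand), Bnip3 (chr7:138909457-138909756, minus strand), P4ha2 (chr11:54100674-54100973, plus strand) and Slc16a3 (chr11:120948817-120949116, plus strand) were among the lower genes of the N2B27 series.
Slc2a1: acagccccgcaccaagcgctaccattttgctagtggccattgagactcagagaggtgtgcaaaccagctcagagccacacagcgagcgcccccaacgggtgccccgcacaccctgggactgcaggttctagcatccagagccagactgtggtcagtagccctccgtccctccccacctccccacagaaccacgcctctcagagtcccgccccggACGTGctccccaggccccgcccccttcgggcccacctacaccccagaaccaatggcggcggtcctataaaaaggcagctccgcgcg
Bnip3: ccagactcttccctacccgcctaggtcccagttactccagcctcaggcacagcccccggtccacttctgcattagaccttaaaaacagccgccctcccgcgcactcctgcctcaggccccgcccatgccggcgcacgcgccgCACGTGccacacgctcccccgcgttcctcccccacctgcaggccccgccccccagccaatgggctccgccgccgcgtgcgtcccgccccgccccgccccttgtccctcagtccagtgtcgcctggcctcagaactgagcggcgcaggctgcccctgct
P4ha2: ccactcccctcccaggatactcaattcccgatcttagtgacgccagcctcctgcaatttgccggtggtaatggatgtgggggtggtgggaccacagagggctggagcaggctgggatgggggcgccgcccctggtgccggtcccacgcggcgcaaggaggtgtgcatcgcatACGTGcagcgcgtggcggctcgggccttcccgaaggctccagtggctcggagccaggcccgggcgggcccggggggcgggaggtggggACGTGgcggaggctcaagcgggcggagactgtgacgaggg
Slc16a3: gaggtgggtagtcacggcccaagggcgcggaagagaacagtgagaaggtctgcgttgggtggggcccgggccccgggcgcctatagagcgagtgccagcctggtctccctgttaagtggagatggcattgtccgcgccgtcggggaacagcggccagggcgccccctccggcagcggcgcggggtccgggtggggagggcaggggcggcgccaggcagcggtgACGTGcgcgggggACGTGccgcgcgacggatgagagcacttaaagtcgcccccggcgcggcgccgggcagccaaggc
For the stress genes Trib3 (chr2:152344011-152344310, minus strand) and Chac1 (chr2:119350992-119351291, plus strand), which were higher in the N2B27 series, capitals mark TGATGNAA or its reverse complement, the letters of the element that Atf4 binds with C/EBP proteins.
Trib3: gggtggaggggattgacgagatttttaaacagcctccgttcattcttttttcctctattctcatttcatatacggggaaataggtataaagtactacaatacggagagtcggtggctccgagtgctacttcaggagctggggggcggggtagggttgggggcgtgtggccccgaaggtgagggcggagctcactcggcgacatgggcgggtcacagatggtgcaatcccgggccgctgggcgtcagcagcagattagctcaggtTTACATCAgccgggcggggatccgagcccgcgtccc
Chac1: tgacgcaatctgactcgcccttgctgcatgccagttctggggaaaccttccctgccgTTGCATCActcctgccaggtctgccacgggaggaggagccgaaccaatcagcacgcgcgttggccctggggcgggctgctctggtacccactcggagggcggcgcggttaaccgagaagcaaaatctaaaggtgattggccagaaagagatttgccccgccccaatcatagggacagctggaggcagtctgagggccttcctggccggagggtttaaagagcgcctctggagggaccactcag
Of 30 tested genes of the glycolysis and hypoxia list with a promoter sequence, 22 (73.3%) held ACGTG on either strand. The same held for 29.9% of the 9498 tested genes with a promoter and 21.8% of all 27025 genes with one. TGATGNAA was in 9 of 26 genes of the Atf4 list (34.6%), against 2.47% of the tested genes and 4.51% of all genes. A gene counted if any of its promoters held the letters. The lists hold genes chosen as members of these responses. These shares therefore describe the lists and not the difference between the series. A match is a description of letters in this window and says nothing of binding. Pfkp, Pdk1 and Cebpb, which also differed between the series, had no match to the letters searched. Other forms of either element, such as GCGTG, were not searched.

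Across the genome the series differed in both genotypes, and by more than the genotypes did. Values were compared as log2 of FPKM plus 1 with limma, with genotype as a block, in the 13832 genes that had at least 1 FPKM in at least 2 of the 4 libraries. At an adjusted p under 0.05, 319 genes (2.31%) were higher and 211 (1.53%) lower in the N2B27 series, and 213 and 153 of these by at least 2-fold. All 530 (3.83%) had the same sign in both genotypes, and in 527 the libraries of the 2 series did not overlap. A fit on 2 pairs hardly passes a gene whose pairs disagree, so these 2 counts follow from the selection. Over all genes tested, 38.3% were positive and 29.6% negative in both pairs. Over all genes tested, both N2B27 libraries lay above both KSR libraries in 31.4% and below both in 23.4%. The genotype coefficient of the same fit passed for 11 genes (0.0795%), 5 higher and 6 lower under the KO label. At an unadjusted p under 0.05 stood 3165 genes for the series and 777 for the genotype. The smallest series difference that passed was 0.63 log2, and the median standard error was 0.19.

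The 2 genotypes share no library, so their series differences could be set side by side gene by gene. Across genes, which are not independent replicates, Pearson's r was 0.52 and Spearman's rho 0.51. The genotype differences of the 2 series, which also share no library, had an r of 0.03 and a rho of 0.04. At 2-fold or more, 177 genes (1.28%) were higher and 123 (0.889%) lower in the N2B27 series in both genotypes, and 35 went opposite ways. The WT-labelled pair differed more widely than the KO-labelled pair, with an SD over genes of 0.59 against 0.49, and 635 higher and 380 lower genes at 2-fold against 345 and 329.

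**Figure D1:**
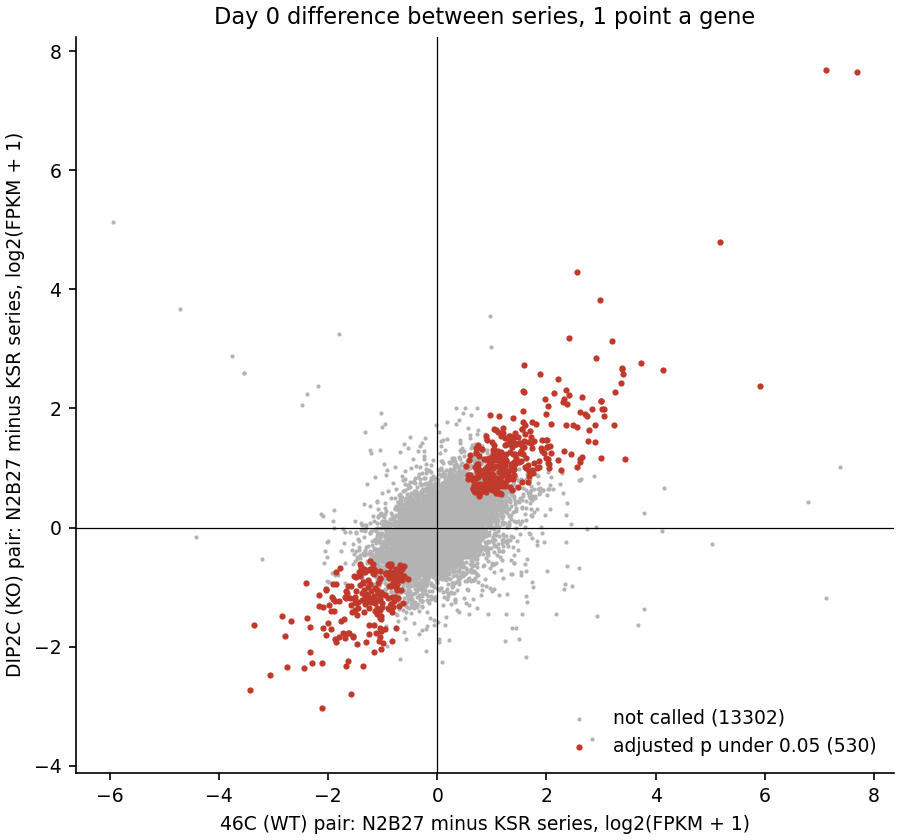
Series difference of each tested gene at day 0, as log2(FPKM + 1) in the N2B27 series minus that in the KSR series, in the WT-labelled pair (horizontal) and the KO-labelled pair (vertical). The 530 genes past the test (red) lie at the lower left and the upper right, since all have the same sign in both pairs.

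With only 1 residual degree of freedom beside the 5.94 that limma borrowed across genes, the calls rest on both pairs together. When either pair was left out and the spread taken from the differentiated libraries, 0 genes passed in limma, with 1578 at an unadjusted p under 0.05 without the WT-labelled pair and 2490 without the KO-labelled pair. With all 26789 genes fitted and no filter on low values, 0 passed in limma and 3154 had an unadjusted p under 0.05. Without the genotype block 192 higher and 107 lower genes passed. Higher genes made up 60.2% of calls as deposited. They made up 48.4% when mitochondrially encoded genes were left out and all libraries were also rescaled to the same FPKM sum. The parts of these steps were not tested separately. After an adjustment for transcript length and GC content, chosen after the data were seen, the share was 49.0%.

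The WT-labelled library of the N2B27 series stood apart on chromosome 8. Its 574 tested protein coding genes there had a median series difference of 0.41 log2 in the WT-labelled pair, with 84.3% above 0, and of −0.01 in the KO-labelled pair, with 49.1% above 0. Within the N2B27 series the KO-labelled minus WT-labelled median on that chromosome was −0.40, and within the KSR series −0.01. Medians of the WT-labelled pair in 4 consecutive windows of the chromosome were 0.33 to 0.54. The other chromosomes, leaving out Y and the mitochondrial one, had medians of −0.05 to 0.15 under the WT label and −0.03 to 0.11 under the KO label. On chromosome 8, 18 protein coding genes passed as higher and 0 as lower. With the whole chromosome left out of the fit 302 genes passed as higher and 216 as lower. Genes of chromosome 8 are marked as such below, and the part of the chromosome in their values was not tested.

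**Figure D2:**
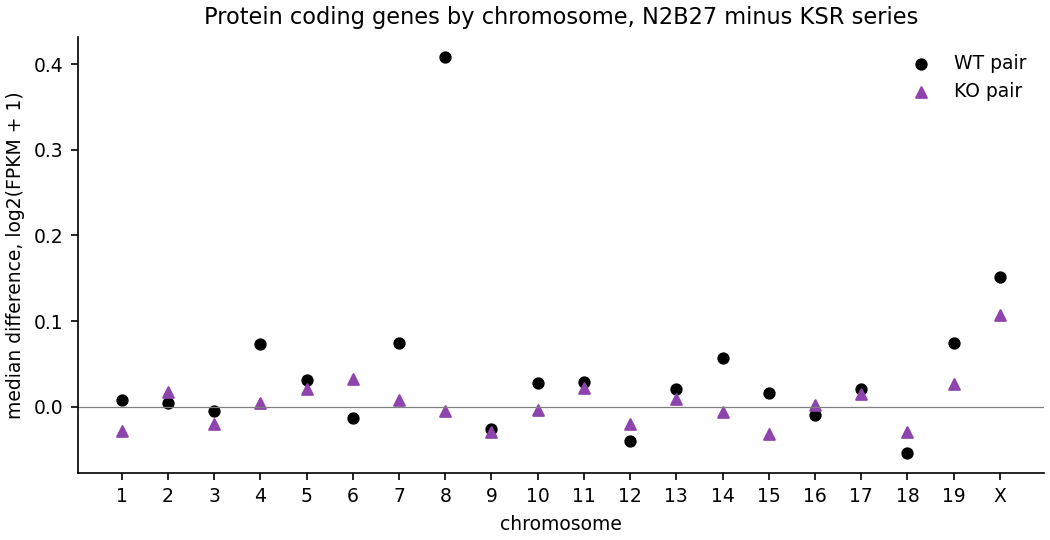
Median series difference of tested protein coding genes by chromosome, in log2(FPKM + 1), in the WT-labelled (circles) and KO-labelled pair (triangles). Chromosome 8 has 0.41 in the WT-labelled pair and −0.01 in the KO-labelled pair, and the others lie between −0.05 and 0.15.

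Short transcripts had a higher median series difference than long ones, more so in the WT-labelled pair. The 1001 genes of up to 500 bases had medians of 0.34 under the WT label and 0.11 under the KO label, and 9.29% of them passed as higher. The 703 genes over 4000 bases had −0.13 and −0.01, and 0.569% passed as higher. Processed pseudogenes, whose reads can come from their parent genes, gave 83 of the 319 higher and 17 of the 211 lower genes, and protein coding genes 197 and 174. Transcript length is given below for the gene groups it touches, and its part in them was not tested.

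Among the gene lists, those of metabolic genes had the most members past the test by count, which also depends on list size. In either direction, 7 of 34 glycolysis and hypoxia, 8 of 24 cholesterol and 7 of 19 fatty acid genes passed. Of smaller lists, 6 of 16 Nodal and TGF-beta genes and 4 of 11 retinoid genes passed, a larger part than in the glycolysis and hypoxia list. Genes of glycolysis and of the hypoxia response were lower in the N2B27 series: of 34 tested, 7 fell and 0 rose, against 1.53% lower among all genes. Of the 34, 29 were negative in both genotypes, as were 29.6% of all genes, and in 28 both N2B27 libraries lay below both KSR libraries, as did 23.4% of all genes. The list median was −0.66 under the WT label and −0.38 under the KO label, where all genes had 0.07 and 0.02. In bulk RNA, fewer cells of a kind and less RNA per cell cannot be told apart.

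Bnip3, which marks mitochondria for autophagy, had 57.3 and 48.7 FPKM in the KSR series and 8.05 and 15.8 in the N2B27 series. Both N2B27 libraries were far below both KSR libraries, 4.45-fold lower on the means (−2.13 ± 0.26 log2, n = 2 pairs, limma adjusted p = 0.014). Here and below, ± gives limma's standard error, which is partly borrowed across genes. It is not the spread between the pairs, whose Bnip3 differences were −2.69 under the WT label and −1.57 under the KO label. P4ha2, a collagen prolyl hydroxylase subunit, had 7.27 and 7.43 FPKM in the KSR series and 1.15 and 1.59 in the N2B27 series (−1.82 ± 0.22; adjusted p = 0.014). Pdk1, the kinase that keeps pyruvate out of the mitochondrion, had 32.2 and 26.6 FPKM in the KSR series and 12.3 and 10.9 in the N2B27 series (−1.27 ± 0.15; adjusted p = 0.014). The libraries of the 2 series did not overlap in these genes, and the KO-labelled N2B27 library was the lowest for Pdk1 and the WT-labelled one for Bnip3 and P4ha2. Among the transporters, Slc2a1, the main glucose importer of many cells, had 167 and 162 FPKM in the KSR series and 65.2 and 99.2 in the N2B27 series (−1.02 ± 0.18; adjusted p = 0.031). Slc16a3, a lactate exporter, had 103 and 84.2 FPKM in the KSR series and 29.4 and 52.2 in the N2B27 series (−1.23 ± 0.24; adjusted p = 0.0449). Both transporters were lowest in the WT-labelled N2B27 library, with the KO-labelled one between it and the KSR series.

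Ndrg1, a stress gene raised by hypoxia, had 16.5 and 14.7 FPKM in the KSR series and 7.39 and 5.75 in the N2B27 series (−1.14 ± 0.18; adjusted p = 0.0244). Pfkp, a phosphofructokinase of glycolysis, had 213 and 198 FPKM in the KSR series and 135 and 122 in the N2B27 series (−0.68 ± 0.13; adjusted p = 0.0429). Its exons overlap Pitrm1 on the opposite strand, and whether counting used strand is not given in the sources used here. Bnip3 overlaps Gm45507 in the same way. Exon overlaps are named for some genes only. Others below have them too, among them Anxa2, Hmga2, Rbm47, Notum, Lef1, Fst and Tuba3a. Of the other glycolytic enzymes, Pfkl had −0.77 (adjusted p = 0.0612) and Aldoc −0.53 (adjusted p = 0.1). The oxygen sensors Egln1 and Egln3, prolyl hydroxylases that mark Hif proteins for breakdown, had −0.78 (adjusted p = 0.0689; chromosome 8) and −1.31 (adjusted p = 0.0559). Summed over the list, the levels were 8243 and 7569 FPKM in the KSR series and 5606 and 6083 in the N2B27 series.

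Lipid synthesis went the other way. Of 24 tested genes of cholesterol synthesis and uptake, 8 rose and 0 fell, against 2.31% higher among all genes, and 21 were positive in both genotypes, as were 38.3% of all genes. In 20 both N2B27 libraries lay above both KSR libraries, as did 31.4% of all genes. The medians were 0.47 under the WT label and 0.56 under the KO label. Of 19 fatty acid genes 7 rose and 0 fell, with medians of 0.60 and 0.57.

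Insig1, which holds SREBP in the endoplasmic reticulum and is itself an SREBP target, had 49.9 and 50.4 FPKM in the KSR series and 104 and 128 in the N2B27 series (1.19 ± 0.14; adjusted p = 0.0138). Dhcr7, the enzyme of the last step to cholesterol, had 26.2 and 22.2 FPKM in the KSR series and 56 and 50.3 in the N2B27 series (1.10 ± 0.13; adjusted p = 0.014). Both were higher in both N2B27 libraries than in either KSR library. The synthesis enzymes Fdps (0.94), Cyp51 (0.85) and Msmo1 (1.10) were among the other members past the test. Msmo1 lies on chromosome 8, and Cyp51, whose adjusted p = 0.0499, overlaps Akap9 on the opposite strand.

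In fatty acid synthesis, Srebf1, the gene of the SREBP1 factors, had 38.9 and 40.5 FPKM in the KSR series and 86.9 and 95.5 in the N2B27 series (1.18 ± 0.13; adjusted p = 0.011). Fasn, fatty acid synthase, had 100.1 and 94 FPKM in the KSR series and 167 and 197 in the N2B27 series (0.89 ± 0.14; adjusted p = 0.027). Scd2, a desaturase that makes monounsaturated fatty acids, had 188 and 206 FPKM in the KSR series and 338 and 461 in the N2B27 series (1.0 ± 0.15; adjusted p = 0.0242). For these genes the KO-labelled N2B27 library was the highest of the 4, and the 2 KSR libraries lay close together. Scd1 (0.74), the polyunsaturated fatty acid desaturases Fads1 (0.85) and Fads2 (1.15) and the acyl-CoA synthetase Acsl3 (0.95) rose as well. Acly, which supplies cytosolic acetyl-CoA, had 0.24 (adjusted p = 0.338), and the elongase Elovl6 −0.29 (adjusted p = 0.256). Medians of transcript length were 1454.5 bases for the cholesterol and 1338.5 for the fatty acid list, near the 1190 bases of all tested genes, and 746.5 for the glycolysis and hypoxia list.

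**Figure D3:**
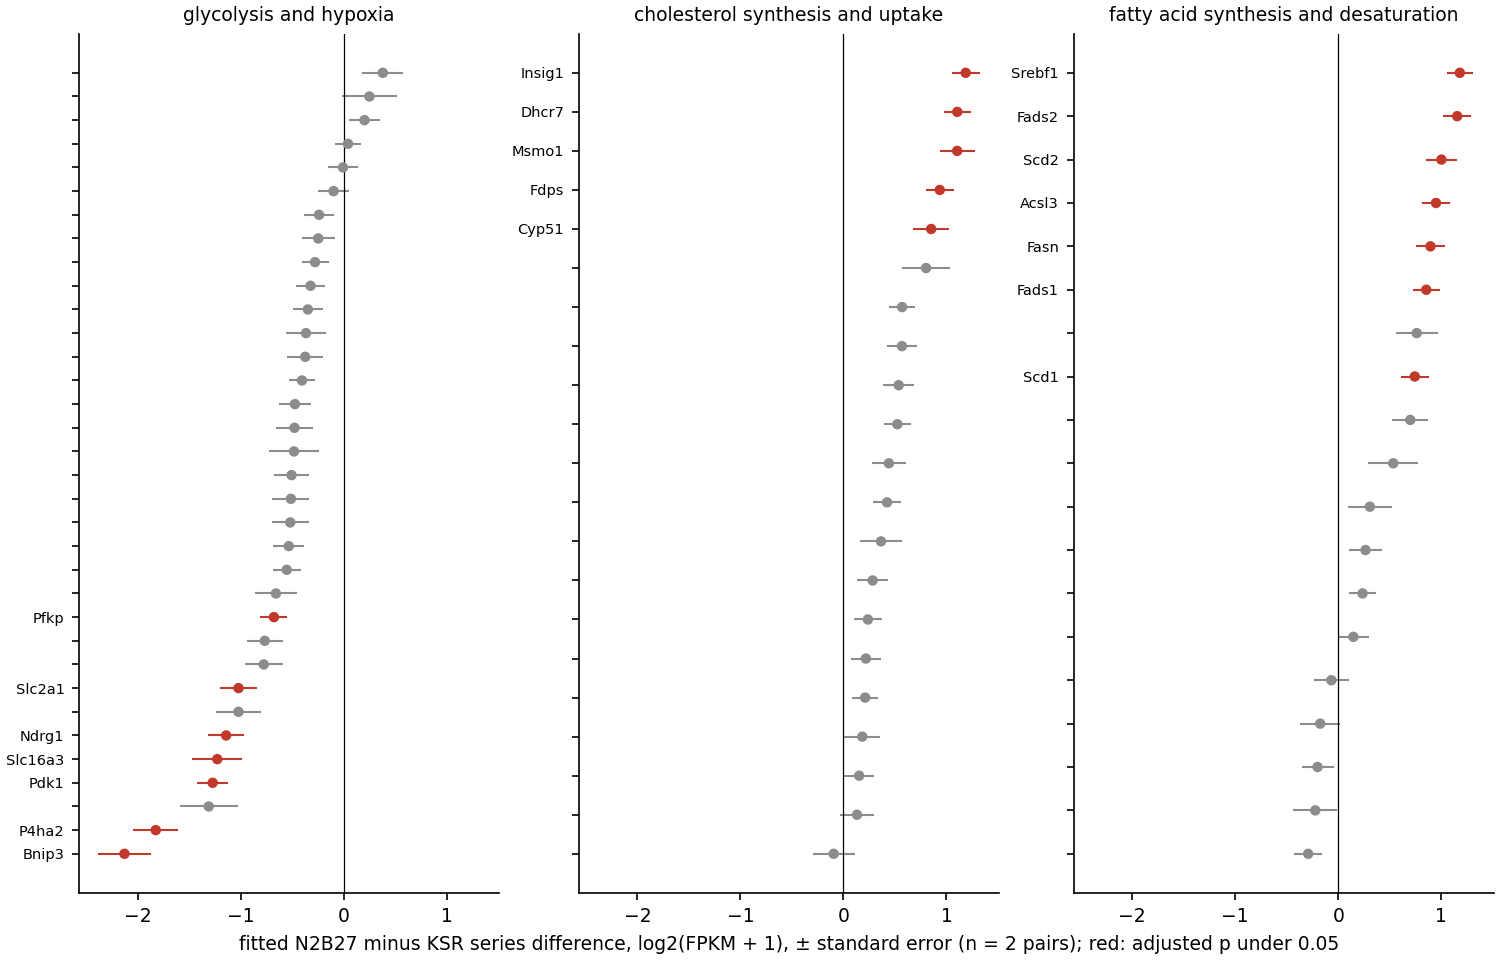
Fitted series difference of the tested members of 3 metabolic lists, in log2(FPKM + 1), with limma's standard error (n = 2 pairs). That error is partly borrowed across genes and is not the spread between the pairs. Members past the test are named and in red, and the others are unnamed. The 7 red glycolysis and hypoxia genes lie left of 0, and the 5 red of the 21 cholesterol genes drawn and the 7 red fatty acid genes right of 0.

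Some genes of redox defence and of amino acid stress were higher in the N2B27 series, and none of either list passed as lower. Of 17 genes of the Nrf2 and glutathione list 4 rose and 0 fell, against 2.31% higher and 1.53% lower among all genes. The list median was 0.38 under the WT label and 0.38 under the KO label, where all genes had 0.07 and 0.02. Its median transcript length was 877 bases, against 1190 for all tested genes. Gstm2, a glutathione transferase, had 12.2 and 15.7 FPKM in the KSR series and 39.7 and 32.4 in the N2B27 series (1.31 ± 0.19; adjusted p = 0.0203), and both N2B27 libraries exceeded both KSR libraries. Gstm1 (0.82) passed too, but the Gstm genes are close copies that can share reads. Nqo1, a quinone reductase and classic Nrf2 target, had 22.1 and 15.8 FPKM in the KSR series and 36.8 and 41.3 in the N2B27 series (1.02 ± 0.18; adjusted p = 0.0339), and Gsr, glutathione reductase, had 43.7 and 48.4 FPKM in the KSR series and 96 and 80.5 in the N2B27 series (0.92 ± 0.15; adjusted p = 0.027). Both lie on chromosome 8 and were higher in the N2B27 series in the KO-labelled pair as well, by 1.33 and 0.72. Gpx2, a glutathione peroxidase outside that list, was among the genes with the largest difference, at 11.2 and 12.6 FPKM in the KSR series and 75 and 60.9 in the N2B27 series (2.41 ± 0.16; adjusted p = 0.00435; 5.71-fold). The iron importer gene Tfrc, the transferrin receptor, had 47.5 and 71.4 FPKM in the KSR series and 99.3 and 175 in the N2B27 series (1.17 ± 0.13; adjusted p = 0.0137), higher under the KO label within each series and higher in both N2B27 libraries than in either KSR library.

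In the list of Atf4 and amino acid stress genes 3 of 30 rose and 0 fell, against 2.31% higher and 1.53% lower among all genes. Of the 30, 20 were positive in both genotypes and 0 negative in both, against 38.3% and 29.6% of all genes. The medians were 0.72 under the WT label and 0.23 under the KO label, and the median transcript length 1048 bases. Trib3, a pseudokinase that Atf4 induces, had 19.2 and 18.9 FPKM in the KSR series and 63.1 and 32.7 in the N2B27 series (1.21 ± 0.22; adjusted p = 0.0353). Chac1, which breaks down glutathione, had 11.4 and 9.32 FPKM in the KSR series and 50.2 and 20.7 in the N2B27 series (1.56 ± 0.24; adjusted p = 0.0239). Cebpb, a transcription factor that pairs with Atf4, had 0.923 and 0.991 FPKM in the KSR series and 13.2 and 5.54 in the N2B27 series (2.30 ± 0.31; adjusted p = 0.0183) and overlaps Tmem189 on the opposite strand. In all 3 the WT-labelled N2B27 library was highest and the KO-labelled one second. Cebpb was under 1 FPKM in both KSR libraries and entered the test only through the N2B27 libraries. The count of 3 is thus in part set by the filter. Nupr1, a stress response cofactor, had 39.5 and 34.9 FPKM in the KSR series and 192 and 58.4 in the N2B27 series (1.49; adjusted p = 0.0541), and Atf5 had 1.16 (adjusted p = 0.07). The unfolded protein response list of 20 and the heat shock list of 16 had 0 members past the test in limma. At an unadjusted p under 0.05 they had 5 and 3, against 3165 of all 13832 genes. The medians were 0.01 and 0.09 for the former and 0.01 and 0.01 for the latter.

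**Figure D4:**
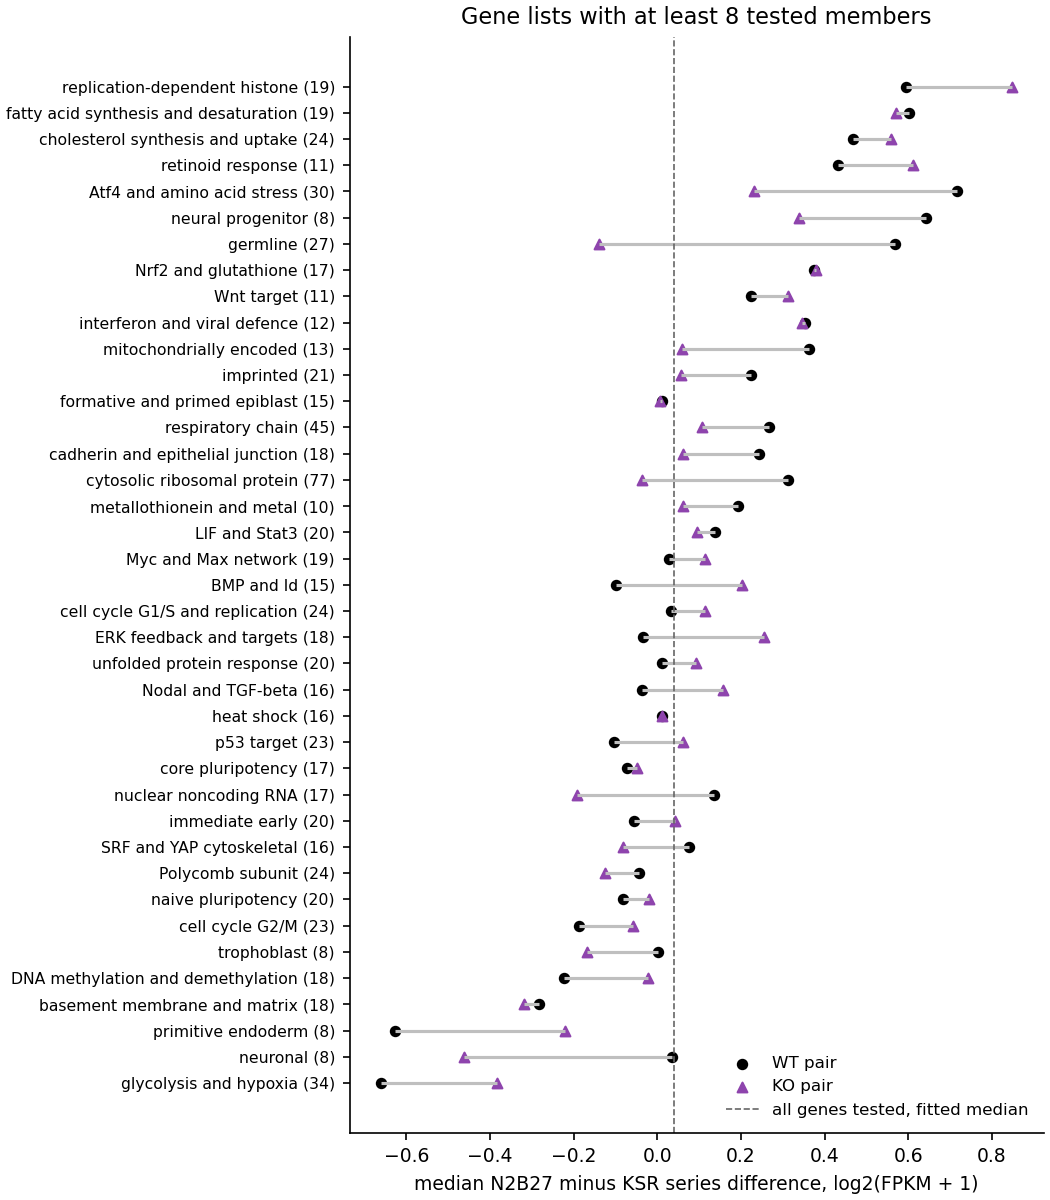
Median series difference of each gene list with at least 8 tested members (number in brackets), in log2(FPKM + 1), in the WT-labelled (circles) and KO-labelled pair (triangles), with the fitted median of all tested genes dashed (0.04). Glycolysis and hypoxia genes lie lowest on the fitted values, and histone, fatty acid and cholesterol genes lie right of the dashed line in both pairs.

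Of the 12 named higher genes, 3 belonged to the Rhox cluster. Rhox2a (X chromosome, chrX:37244976-37249686 of GRCm38), a homeobox gene of the reproductive tract and early embryo, had 0.796 and 1.54 FPKM in the KSR series and 17.8 and 15.4 in the N2B27 series. Both N2B27 libraries stood far above both KSR libraries, 14.2-fold on the means (3.04 ± 0.24; adjusted p = 0.00495). Rhox5 (chrX:37804842-37808876), the founding member of the cluster, had 3.45 and 5.46 FPKM in the KSR series and 41.7 and 30.2 in the N2B27 series (2.77 ± 0.25; adjusted p = 0.00638). Rhox2e had 0.299 and 0.205 FPKM in the KSR series and 5.0 and 5.78 in the N2B27 series (2.35 ± 0.24; adjusted p = 0.00968). The 3 did not overlap between series, and the WT-labelled N2B27 library was the highest in the first pair of genes and the KO-labelled one in Rhox2e. Of 34 Rhox symbols, 12 were tested and 10 rose, a family grouped after its values were seen. Of the 10, Rhox2b, Rhox2c, Rhox2e, Rhox4a, Rhox4a2 and Rhox4e were under 1 FPKM in both KSR libraries. They entered the test only through the N2B27 libraries, so the count of 10 is in part set by the filter. The summed levels of all 34 symbols were 12.2 and 15.9 FPKM in the KSR series and 119.56 and 93.8 in the N2B27 series. Rhox6 (0.86; adjusted p = 0.141) and Rhox9 (1.37; adjusted p = 0.0749) did not pass. The Rhox2 and Rhox4 genes are near-identical copies, so reads can be split between them and single values are uncertain. On the X chromosome as a whole 33 of 411 tested protein coding genes passed as higher (8.03%) and 2 as lower, where the autosomes other than 8 had 0.370% to 2.48% higher. The 10 Rhox genes that rose also lie on the X chromosome, and its share without them was not computed.

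Other germline genes went both ways. Of the 27 tested in the germline list 3 rose and 3 fell, against 2.31% higher and 1.53% lower among all genes. Its medians were 0.57 under the WT label and −0.14 under the KO label. Stra8, which germ cells need to enter meiosis and which retinoic acid induces, had 4.37 and 5.15 FPKM in the KSR series and 27.5 and 27.9 in the N2B27 series (2.32 ± 0.17; adjusted p = 0.00435; 5.82-fold). Within each series its 2 libraries were close together and the series did not overlap. Tuba3a, a testis tubulin gene, had 94 and 159.8 FPKM in the KSR series and 224 and 261 in the N2B27 series (0.97 ± 0.17; adjusted p = 0.0308). Piwil2, which loads piRNAs, had 3.99 and 3.51 FPKM in the KSR series and 0.969 and 0.688 in the N2B27 series (−1.38 ± 0.23; adjusted p = 0.0288), and the meiotic cohesin gene Smc1b (−1.39) and the piRNA factor gene Mael (−1.18) fell too. Piwil2, Smc1b and Mael were thus the lower members, and Rhox5, Stra8 and Tuba3a the higher ones. Piwil2 was under 1 FPKM in both N2B27 libraries and entered the test only through the KSR libraries. Mov10l1 of the same list had −0.66 and did not pass (limma adjusted p = 0.147).

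DNA methylation genes gave 2 lower members of 18 and 0 higher. Among all tested genes 1.53% were lower and 2.31% higher. Dnmt3l, the cofactor of the de novo methyltransferases, had 31.3 and 12.6 FPKM in the KSR series and 2.84 and 1.44 in the N2B27 series (−2.78 ± 0.22; adjusted p = 0.00495). Aire, the autoimmune regulator gene known from the thymus, had 29.9 and 33.4 FPKM in the KSR series and 1.84 and 4.19 in the N2B27 series (−3.08 ± 0.22; adjusted p = 0.00435). In both genes both N2B27 libraries were far below both KSR libraries, 10.3-fold lower for Dnmt3l and 10.5-fold lower for Aire on the means. Their exons overlap on opposite strands of chromosome 10 (chr10:78041947-78063622 and chr10:78030022-78043610), so without strand their reads cannot be told apart. Tet1, which oxidises methylated cytosine, had 76.8 and 85.2 FPKM in the KSR series and 28.4 and 53.7 in the N2B27 series (−1.03 ± 0.19; adjusted p = 0.0378). The methyltransferase gene Dnmt3b had −0.49 (adjusted p = 0.174). Among 21 imprinted genes Slc38a4, an amino acid transporter gene, had 72.3 and 82.6 FPKM in the KSR series and 15.2 and 37.1 in the N2B27 series (−1.65 ± 0.24; adjusted p = 0.0204), and Peg10 (−1.36) fell as well. Of 24 Polycomb genes Kdm2b (−0.82) and Jarid2 (−0.73), which recruit the complexes to chromatin, fell and 0 rose.

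Pluripotency genes as a group had medians near those of all genes, and single members passed in either direction. Among all genes 2.31% passed as higher and 1.53% as lower. In limma 9 of 20 naive, 5 of 17 core and 7 of 15 formative genes had an unadjusted p under 0.05. So did 3165 of all 13832 genes. Of 20 naive genes 2 rose and 1 fell, with medians of −0.08 under the WT label and −0.02 under the KO label, and summed levels of 2681 and 2412 FPKM in the KSR series and 2636 and 2383 in the N2B27 series. Dppa3, a maternal factor that protects DNA methylation in the early embryo, had 0.990 and 1.91 FPKM in the KSR series and 15.5 and 9.64 in the N2B27 series (2.46 ± 0.30; adjusted p = 0.0147; 8.70-fold). Klf2, a naive factor on chromosome 8, had 139 and 143 FPKM in the KSR series and 314 and 239 in the N2B27 series (0.96 ± 0.16; adjusted p = 0.0274). Pecam1, an adhesion molecule found on naive stem cells, had 71 and 75.7 FPKM in the KSR series and 44.7 and 40.5 in the N2B27 series (−0.77 ± 0.13; adjusted p = 0.0318). No library of one series overlapped the other in these genes. Klf4 (−0.68; adjusted p = 0.0756) and Tbx3 (−0.66; adjusted p = 0.0547) did not pass. Of 17 core genes, Utf1, a chromatin factor of stem cells, had 90.2 and 54.9 FPKM in the KSR series and 28.1 and 15.3 in the N2B27 series (−1.71 ± 0.13; adjusted p = 0.00495), the RNA binding protein gene L1td1 (−0.80) fell too, and Sox2 had −0.20 (adjusted p = 0.454). In the formative list of 15, Dnmt3l and the Wnt effector gene Lef1 (−1.94) fell, and the zinc finger factor gene Zic2 (0.87) and the ETS factor gene Etv4 (0.87) rose.

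Of the signalling lists, those of Nodal and TGF-beta, Wnt targets and LIF and Stat3 held members that passed in both directions. In the Nodal and TGF-beta list of 16, 3 rose and 3 fell, against 2.31% higher and 1.53% lower among all genes. Lefty1, a secreted inhibitor of Nodal and its target, had 3.48 and 2.61 FPKM in the KSR series and 22.4 and 14.3 in the N2B27 series (2.23 ± 0.19; adjusted p = 0.00638), and Lefty2 had 21 and 18.1 FPKM in the KSR series and 79 and 37.7 in the N2B27 series (1.44 ± 0.21; adjusted p = 0.0209). The ligand gene Nodal itself had 29.9 and 26.6 FPKM in the KSR series and 35.8 and 31.2 in the N2B27 series (0.24; adjusted p = 0.346). The ligand gene Tgfb1 (1.42) rose, and the inhibitors Smad7 (−0.89) and Fst (−1.01) and the matrix gene Tgfbi (−1.13) fell. Of 15 BMP and Id genes, Id2, an inhibitor of bHLH factors, had 7.36 and 9.03 FPKM in the KSR series and 1.30 and 1.64 in the N2B27 series (−1.89 ± 0.21; adjusted p = 0.0123) and fell along with Smad7, while Id3 had 0.43 (adjusted p = 0.152). Among 11 Wnt targets Notum, a secreted Wnt deacylase, had 26.4 and 27.2 FPKM in the KSR series and 62.1 and 83.3 in the N2B27 series (1.39 ± 0.15; adjusted p = 0.0107), Lef1 fell, and Axin2 had 0.32 (adjusted p = 0.237). Of 20 LIF and Stat3 genes Lifr, the LIF receptor gene, had 17.8 and 31.1 FPKM in the KSR series and 9.92 and 13.3 in the N2B27 series (−0.97 ± 0.17; adjusted p = 0.0315) and Junb was the member that rose.

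Immediate early genes, which cells raise within minutes of a stimulus or of handling, differed in both directions. Fosb, an AP-1 subunit, had 97.7 and 58 FPKM in the KSR series and 13.6 and 10.7 in the N2B27 series (−2.55 ± 0.16; adjusted p = 0.00312), 6.42-fold lower in the N2B27 series and with no overlap. Jun had 36.7 and 25.1 FPKM in the KSR series and 13.2 and 14.8 in the N2B27 series (−1.07 ± 0.20; adjusted p = 0.0369). Junb, on chromosome 8, had 34.7 and 29.2 FPKM in the KSR series and 83.1 and 58.1 in the N2B27 series (1.10 ± 0.14; adjusted p = 0.0153), and Zfp36, which speeds messenger RNA decay, rose by 0.85. The exons of Jun, Junb and Zfp36 overlap Junos, Prdx2 and Gm44710 on the opposite strand. Fos had −0.60 (adjusted p = 0.12). Over the list of 20 the medians were −0.06 and 0.04, and 2 rose and 2 fell, against 2.31% higher and 1.53% lower among all genes.

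The retinoid list of 11 gave 3 higher genes and 1 lower, against 2.31% higher and 1.53% lower among all genes. Its medians were 0.43 under the WT label and 0.61 under the KO label. Crabp1, a cytosolic retinoic acid binding protein, had 18.1 and 7.66 FPKM in the KSR series and 49 and 30.2 in the N2B27 series (1.62 ± 0.17; adjusted p = 0.0103), higher under the WT label in both series. Meis2, a homeobox gene, had 3.41 and 4.03 FPKM in the KSR series and 9.70 and 12.3 in the N2B27 series (1.34 ± 0.19; adjusted p = 0.021). Tgm2, a transglutaminase gene, had 41 and 41 FPKM in the KSR series and 20.01 and 9.998 in the N2B27 series (−1.47 ± 0.23; adjusted p = 0.0244) and overlaps Rprd1b on the opposite strand. Rarg, a retinoic acid receptor gene, had 0.59 (adjusted p = 0.1).

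Some histone and major histocompatibility genes were higher in the N2B27 series. For the counts in this paragraph, 2.31% of all genes passed as higher and 1.53% as lower. Of 19 replication-dependent histone genes H2ac7 (2.89 and 2.16 FPKM in the KSR series and 9.0 and 7.16 in the N2B27 series; 1.37 ± 0.21) and H1f2 (5.21 and 3.74 FPKM in the KSR series and 11.8 and 11.4 in the N2B27 series; 1.21 ± 0.20) rose, 15 were positive in both genotypes and 0 negative in both, against 38.3% and 29.6% of all genes. Most of their messages lack a poly(A) tail, and their median length was 618 bases. Medians were 0.60 under the WT label and 0.85 under the KO label. The lists of the G1/S and G2/M phases had medians of 0.03 and 0.11, and of −0.19 and −0.06, with Cdkn2a as the 1 member past the test. Cdkn2a, which encodes the cell cycle inhibitors p16Ink4a and p19Arf, had 12.2 and 13.2 FPKM in the KSR series and 79.8 and 53.8 in the N2B27 series (2.28 ± 0.19; adjusted p = 0.00495; 5.26-fold). Among 12 interferon and antigen genes H2-K1, a class I antigen presenting molecule, had 15.9 and 11.2 FPKM in the KSR series and 56.5 and 32.4 in the N2B27 series (1.61 ± 0.15; adjusted p = 0.00787) and Bst2, on chromosome 8, rose by 1.04. The class I gene H2-Bl had 5.63 and 5.96 FPKM in the KSR series and 32.4 and 30.2 in the N2B27 series (2.25 ± 0.16; adjusted p = 0.00435), and class I genes are close copies that can share reads. Of the p53 targets the cell death genes Pmaip1 (−1.67) and Perp (−1.67) fell, 2 of 23, and Cdkn1a had 0.28 (adjusted p = 0.267).

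The other named genes lower in the N2B27 series had varied roles. Anxa2, a calcium-dependent membrane binding protein, had 15.8 and 15.6 FPKM in the KSR series and 2.90 and 1.02 in the N2B27 series (−2.57 ± 0.26; adjusted p = 0.0103). Krt19, a keratin of simple epithelia, had 5.85 and 5.78 FPKM in the KSR series and 0.356 and 0.600 in the N2B27 series (−2.21 ± 0.23; adjusted p = 0.0103). Emp1, an epithelial membrane protein gene, had 36.2 and 16.3 FPKM in the KSR series and 4.13 and 5.20 in the N2B27 series (−2.17 ± 0.31; adjusted p = 0.0204). In each of the 3 the N2B27 libraries lay well under the KSR ones, which in Emp1 differed most by label. Hmga2, a chromatin protein of growing embryonic cells, had 12.1 and 19.3 FPKM in the KSR series and 3.40 and 1.94 in the N2B27 series (−2.18 ± 0.30; adjusted p = 0.0189). Dapk1, a death-associated kinase gene, had 28 and 20.2 FPKM in the KSR series and 1.84 and 5.86 in the N2B27 series (−2.49 ± 0.37; adjusted p = 0.0227). Both Hmga2 and Dapk1 varied by label within a series, by less than they did between series. Igsf21 (−2.40) and the RNA binding protein gene Rbm47 (−2.0) also fell. Fgfrl1, an FGF receptor-like gene without a kinase, had 3.23 and 4.24 FPKM in the KSR series and 20.7 and 25 in the N2B27 series (2.34 ± 0.18; adjusted p = 0.00455) and with AV320801 (2.21) completes the 12 named higher genes.

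**Figure D5:**
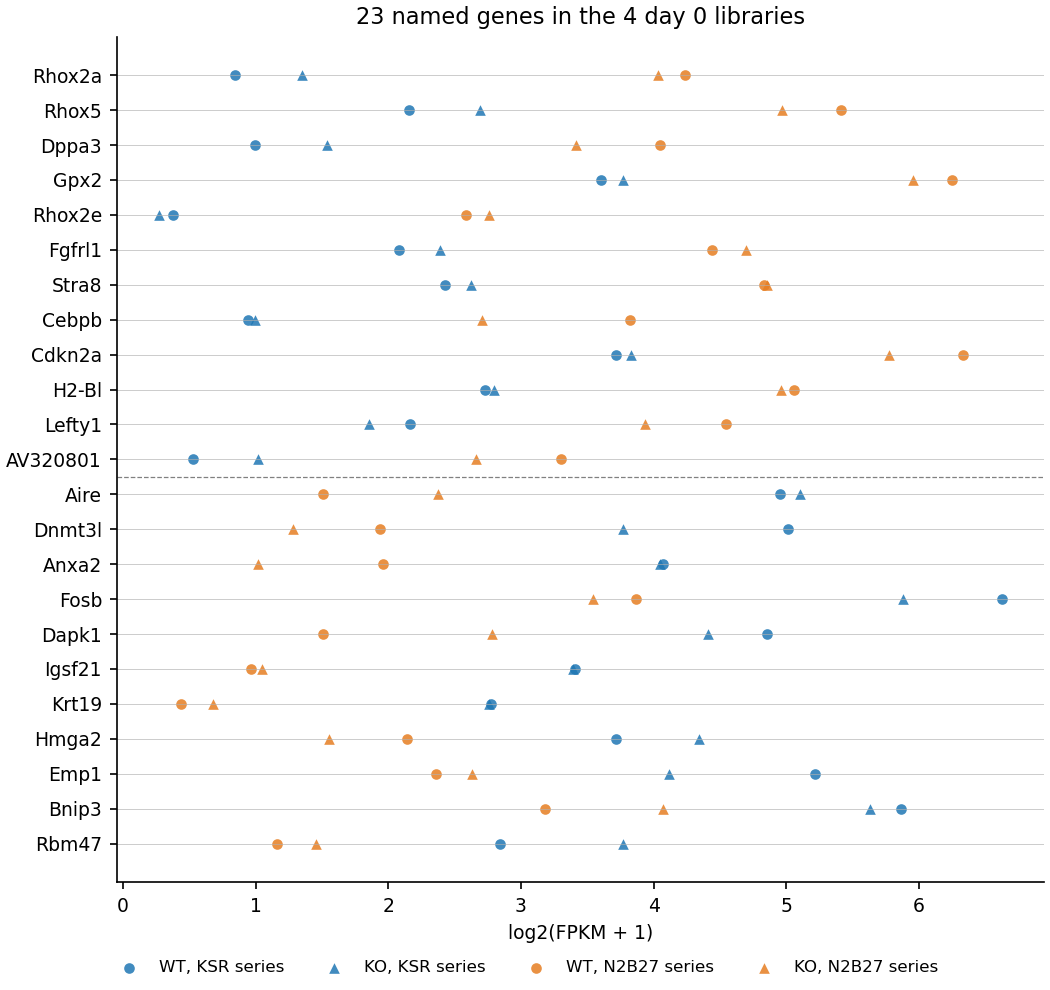
Level of 23 named genes in each day 0 library, in log2(FPKM + 1), for the KSR series (blue) and the N2B27 series (orange), WT-labelled (circles) and KO-labelled (triangles). Above the dashed line all orange points lie right of the blue ones, from Rhox2a (3.04 log2) down, and below it left of them, from Aire (−3.08 log2) down.

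Basement membrane and matrix genes tended to negative values, 13 of 18 negative in both genotypes against 29.6% of all genes. The medians were −0.28 under the WT label and −0.32 under the KO label. Only Col18a1 (−1.01) fell and the integrin gene Itga5 (0.80) rose, against 1.53% lower and 2.31% higher among all genes. Such genes are also made by primitive endoderm and fibroblasts. Primitive endoderm markers summed to 242 and 214 FPKM in the KSR series and 216 and 185 in the N2B27 series, with 11 of 21 under 1 FPKM in all 4 libraries and the lineage factors Gata4 at most 0.643 and Gata6 at most 0.542 FPKM. Fibroblast and feeder markers summed to 20.1 and 10.2 FPKM in the KSR series and 8.42 and 7.47 in the N2B27 series. Of its 18 genes 12 were under 1 FPKM and 5 at 0 in all 4 libraries, among them the collagen gene Col3a1 and Dcn. Their part in the matrix genes was not tested.

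Among markers of other cell types, Gsc of the mesendoderm list and the neurotrophin receptor gene Ngfr of the EMT and neural crest list (1 of 7 tested; 0.89; adjusted p = 0.0274) passed the test. Of 20 neural progenitor markers 12 were under 1 FPKM in all 4 libraries, with Fabp7 at 0, and the 8 tested had medians of 0.64 and 0.34 with 0 past the test in limma and 3 at an unadjusted p under 0.05. Their list summed to 232 and 198 FPKM in the KSR series and 217 and 270.4 in the N2B27 series. Neuronal markers summed to 152 and 154 FPKM in the KSR series and 132 and 98.8 in the N2B27 series, with 11 of 20 under 1 FPKM and Dcx at 0, and had 0 of 8 past the test in limma, 5 of them at an unadjusted p under 0.05. In the mesendoderm list 1 of 5 rose, the homeobox gene Gsc, at 3.08 and 4.61 FPKM in the KSR series and 15.2 and 11.6 in the N2B27 series (1.58 ± 0.24; adjusted p = 0.0249), while T had 0.03 (adjusted p = 0.964). The 2-cell-like list had 24 of 26 genes under 1 FPKM in all 4 libraries. Trophoblast markers had 0 of 8 and blood markers 0 of 2 past the test in limma, and 5 and 1 at an unadjusted p under 0.05. Among all 13832 tested genes 530 passed in limma, and 3165 had an unadjusted p under 0.05.

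The ribosomal, respiratory chain and mitochondrially encoded lists had 0 members past the test in limma. At an unadjusted p under 0.05 they had 5 of 77, 8 of 45 and 1 of 13, against 3165 of all 13832 genes. The list medians were 0.31, 0.27 and 0.36 in the WT-labelled and −0.04, 0.11 and 0.06 in the KO-labelled pair. Their median transcript lengths were 628.5, 670 and 784 bases. Among long nuclear RNAs Neat1, the scaffold of paraspeckles, had 14.2 and 18.2 FPKM in the KSR series and 32.1 and 69.2 in the N2B27 series (1.49 ± 0.20; adjusted p = 0.0178), and Malat1 had 133 and 133 FPKM in the KSR series and 55.5 and 90.05 in the N2B27 series (−0.90 ± 0.18; adjusted p = 0.0474). Neat1 was thus higher and Malat1 lower in both N2B27 libraries.

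The differentiated libraries show where the day 0 levels stood, without sharing a library with them. The WT-labelled N2B27 one is given as day 6 by its title and as day 7 by the name of its column, and is called day 6 here. Rhox5 had 4.82 and 7.74 FPKM at KSR day 4 and 23.2 and 11 at N2B27 day 6, and Rhox2a 0.280 and 0 FPKM at KSR day 4 and 0.472 and 0.301 at N2B27 day 6. Stra8 had 1.18 and 0.966 FPKM at KSR day 4 and 0.578 and 0.163 at N2B27 day 6 and Dppa3 0.231 and 0.488 FPKM at KSR day 4 and 0.145 and 0.112 at N2B27 day 6, so all libraries after induction were below both N2B27 day 0 libraries in these 4 genes. Hmga2 had 59.8 and 56.6 FPKM at KSR day 4 and 35.7 and 65.7 at N2B27 day 6, above every day 0 library. Bnip3 had 20.7 and 38.4 FPKM at KSR day 4 and 45 and 69.6 at N2B27 day 6. Of the 319 genes higher at day 0 in the N2B27 series 162 (50.8%) were also higher at N2B27 day 6 than at KSR day 4 under both labels, as were 32.4% of all tested genes. Of the 211 lower ones 86 (40.8%) were lower under both labels, as were 37.0% of all tested genes. Those libraries differ in medium and day as well as in series.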

How the data were processed

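The deposited values are FPKM in 1 table of 8 libraries, made by the authors with STAR and Cufflinks on mm10, per the submitters' processing notes. The sources used here give no versions, settings or use of strand. Per the labels' protocols, libraries came from a SMARTer kit with paired reads. Titles gave the groups, and columns were matched to them by name. Columns write KO as DIP2C, and the WT-labelled N2B27 library of day 6 in its title has day 7 in its column. The descriptions of 4 samples name another library than their titles, which were followed. Of 55188 entries, 110 repeated ones were summed, leaving 55078 symbols, and 97.9% of tested genes matched GENCODE M21.

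Genes with at least 1 FPKM in at least 2 of the 4 day 0 libraries were tested on log2(FPKM + 1) with limma 3.58.1 (R 4.3.3), genotype as a block, a trend in eBayes and two-sided Benjamini-Hochberg adjustment over all 13832 genes. The pseudocount shrinks the differences of low genes. The block comes from the labels' genotype, and replicate numbers pair nothing. P-values and standard errors measure only the spread between these libraries, which limma partly borrowed across genes. Named genes were those past the test with the largest differences, 12 in each direction, that reached 5 FPKM in both libraries of the higher series and are no predicted genes, plus list members past the test and up to 6 others per list. Members and lists were chosen with earlier results of these data known. Folds are ratios of mean FPKM. The fit was tested on simulated data. Other pseudocounts, filters, scalings, eBayes settings, models and left-out pairs were tried. 4 of the genes so chosen are not reported here. Acta1, Mvd, Cox4i1, Rpl13, Cdt1 and Gins2 were listed and not analysed here. Other steps used Python 3.11.15 with scipy 1.17.1, pandas 2.3.3, numpy 2.4.6 and matplotlib 3.10.9.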

Additional observations from a re-analysis of the deposited data

Results flagged for a closer look

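Some gene lists had a median above 0 in one genotype and below 0 in the other, which flagged them. With 1 library per genotype and series these differences between genotypes were not tested. The medians of the WT-labelled and KO-labelled pair, in log2, were 0.567 and −0.139 for germline genes, 0.314 and −0.0359 for ribosomal protein genes, 0.136 and −0.192 for nuclear noncoding RNAs, and 0.0757 and −0.0809 for SRF and YAP targets. They were 0.0357 and −0.462 for neuronal and 0.00148 and −0.169 for trophoblast markers. The opposite order held for ERK feedback genes (−0.0347 and 0.255), BMP and Id genes (−0.0978 and 0.202), Nodal and TGF-beta genes (−0.0368 and 0.157), p53 targets (−0.104 and 0.0614) and immediate early genes (−0.0555 and 0.0435). Protein coding genes of chromosome 8 had 0.409 under the WT label and −0.00513 under the KO label, and this difference was not tested either.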

How the results depend on the processing

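All series calls that were tested kept their sign under every alternative, but their number moved. For the left-out pairs the kept sign follows from the calls, which had the same sign in both pairs. Without the filter on low values (26789 genes tested) 0 genes passed in limma for the series and for the genotype, and 0 list members, with 3154 genes at an unadjusted p under 0.05 for the series. Leaving out either pair gave 0 higher and 0 lower genes and 0 list members. That fit assumes that the lone day 0 library of a series varies like the differentiated ones. Without the genotype block, so without pairing, 192 genes were higher and 107 lower, with 30 and 14 list members, against 48 and 32 with it. Without the eBayes trend the counts were 118 and 79 genes and 14 and 11 list members. A pseudocount of 0.5 gave 128 lower genes and 20 lower list members, and the fit over all 8 libraries 19 lower list members. Leaving out mitochondrially encoded genes, with all libraries rescaled to the same FPKM sum, gave 329 and 49. For the genotype, 7 genes passed with a pseudocount of 0.1, with a minimum of 5 FPKM and with quantile normalization, and 1 in protein coding genes only. With a pseudocount of 0.1 the 2-fold counts were 1023 higher and 685 lower in the WT-labelled and 681 and 637 in the KO-labelled pair. Of the 24 genes that the rule named 17 passed wherever they were tested in the 13 alternatives other than the left-out pairs and the unfiltered fit, and H2-Bl, one of these, was not tested among protein coding genes only. Gpx2, Lefty1, Fosb and Rbm47 missed over all 8 libraries (adjusted p of 0.058 to 0.0839), Dapk1 and Emp1 without the trend (0.0589 and 0.0558), and Dapk1 with robust eBayes (0.0647). The length and GC adjustment, the fit without chromosome 8 and the fit on protein coding genes were chosen after the data were seen. Depth is unknown, so the precision of low FPKM cannot be given.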

Other observations

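Further gene families, grouped after their values were seen, also differed between the day 0 series. Among all tested genes 2.31% were higher and 1.53% lower. The filter could let in members through the N2B27 libraries alone. Of 14 tested H2A genes 8 were higher and 0 lower in the N2B27 series, with summed levels of 38.1 and 35.8 FPKM in the KSR series and 111 and 94.4 in the N2B27 series (WT-labelled first). Of 17 tested Gst genes, the glutathione transferases, 4 were higher and 1 lower, with sums of 714 and 728 FPKM against 929 and 801. Of 7 tested H2 class genes 3 were higher and 0 lower, with sums of 49.0 and 40.5 FPKM against 124 and 90.9. Copies within these families can share reads.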
